A study of Homo sapiens with 4 samples.

Results

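MYC, PVT1 and a distal 5 kb anchor on the long arm of chromosome 8, at band 8q24, were anchors of H3K27ac-associated loops of up to 1990 kb in M14 melanoma cells. A loop belonged to the set when 1 of its 5 kb anchors held an annotated transcript start of MYC or of PVT1, or when 1 of its anchors was the bin from 130695001 to 130700000 (hg19, counted from 1). The set held 76 of the 27289 WT loops and 72 of the 25621 STAG2-KD loops, which made 120 of the 42529 loops found in either list. These members were selected on values of the same lists. The distal anchor had been picked for its many loops found in 1 list only, and the MYC bin for the longest loop found in WT only, so those counts are given as a description and without a test.

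The data came from H3K27ac HiChIP, in which chromatin pieces that lie close together in the nucleus are ligated and then enriched with an antibody against acetylated lysine 27 of histone H3, a mark of active promoters and enhancers. In both groups the cells were M14, an established human melanoma line, with a hairpin construct that lowers STAG2 when doxycycline is present. Cells given doxycycline for 5 days formed the STAG2-KD group, and cells without doxycycline formed the WT group. Of the 4 labelled samples, 2 per group, 1 loop list per group was analysed. WT therefore means the hairpin-bearing line without induction, not a parental line. The study describes its HiChIP samples as biologically independent, and whether a list merges both samples of its group is not stated. The lists give no expression values, so the knockdown of STAG2 itself could not be checked in them. They also hold nothing but positions, and the reads that support a loop are unknown. A contact that fell just under the caller's limit and a contact that was missing look the same in such a list. Each group had a single measurement, so differences between the groups could not be set against a spread and were not tested. Exact Clopper-Pearson intervals at 95% are given for shares and cover counting error only.

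MYC encodes a transcription factor that drives cell growth and is a classic oncogene. PVT1, its downstream neighbour, is a long non-coding RNA gene that is often gained together with MYC in tumours, and its body contains enhancers that can contact the MYC promoter. The stretch of 8q24 beyond PVT1 is poor in protein-coding genes and is known for enhancers that act on MYC over long distances in several cell types. STAG2 is a subunit of cohesin, the ring complex that extrudes chromatin loops.

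MYC (ENSG00000136997) occupies chromosome 8 from 128747680 to 128755197 on the plus strand. Its 15 annotated transcripts start in 2 bins, of which the first, from 128745001 to 128750000, holds 14 starts and overlaps MYC exons. The same bin also holds starts of CASC11, a long non-coding RNA gene on the opposite strand, and the loops of the pair cannot be told apart at 5 kb. PVT1 (ENSG00000249859), on the same strand, runs from 128806772 to 129199347. Its 190 annotated transcripts start in 20 bins. The distal anchor overlaps an exon of CCDC26, a long non-coding RNA gene on the minus strand from 129646445 to 130696016. It holds the starts of 2 CCDC26 transcripts, at 130695925 and 130696016, so the distal anchor is the 5′ end of CCDC26 and the gene body runs from there back towards PVT1.

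The number of loops at MYC was nearly the same in both lists, whereas the distal anchor had fewer and PVT1 had more in STAG2-KD. MYC had 26 loops in WT and 27 in STAG2-KD. PVT1 had 18 in WT and 24 in STAG2-KD. The distal anchor had 34 in WT and 25 in STAG2-KD. The order of the 3 members thus ran distal anchor, MYC, PVT1 in WT and MYC, distal anchor, PVT1 in STAG2-KD, and with 1 list per group the spread needed to separate neighbours in that order is unknown. Multiplying the WT counts by the ratio of list sizes left the direction as it was for all 3 members. The order at the distal anchor turned in the earlier 50% of the chromosome 8 lines of each list, where it had 14 WT and 16 STAG2-KD loops. The difference at PVT1 was gone when a single gene start was used in place of all transcript starts, with 6 loops in each list, and when loops over 1 Mb were left out, with 14 in each. With 1 bin added on each side it was 28 in WT and 29 in STAG2-KD. The counts at MYC were further apart in the earlier 50% of lines, with 15 in WT and 21 in STAG2-KD, and below 1 Mb, with 14 and 18.

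**Figure D1:**
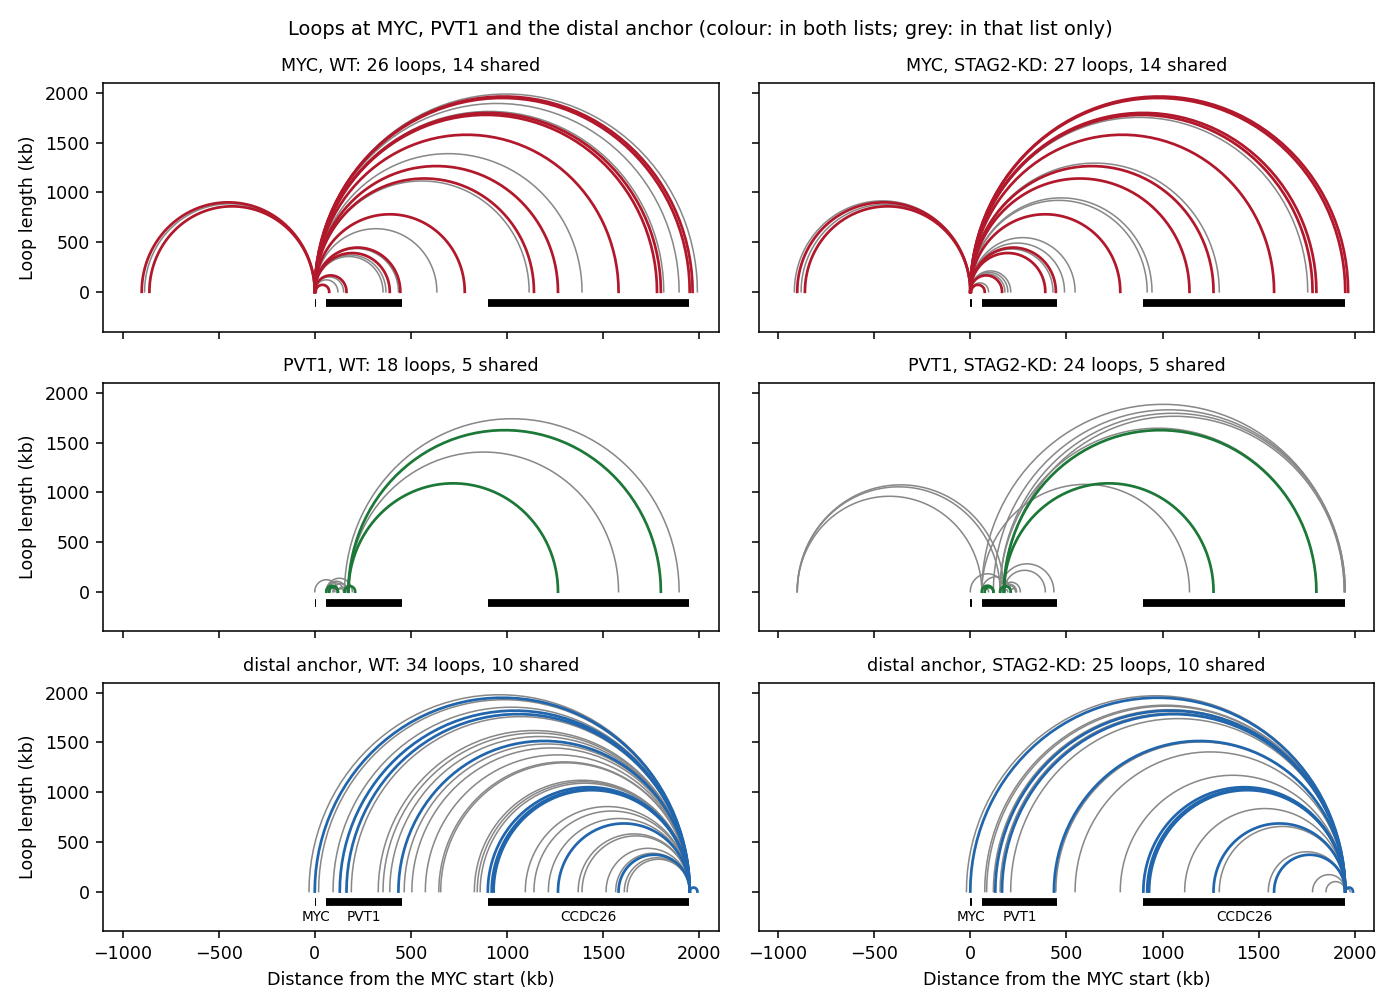
Loops of MYC, PVT1 and the distal anchor in the WT and STAG2-KD lists, drawn as arcs over the distance from the MYC start in kb, with the loop length in kb as the arc height. Coloured arcs are in both lists, grey arcs are in that list only, and black bars mark the gene bodies of MYC, PVT1 and CCDC26. The 10 loops common to both lists at the distal anchor stand among 24 WT-only and 15 STAG2-KD-only ones.

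As a whole, the loops of the locus were shared between the lists about as often as any other loop. Of the 76 WT loops, 28 recurred in the STAG2-KD list with identical bins at either end, which is 36.8% (26.1 to 48.7). Of the 72 STAG2-KD loops, these 28 made 38.9% (27.6 to 51.1). Loops found in 1 list only were therefore 63.2% in WT and 61.1% in STAG2-KD, beside a background over all loops of 62% in WT and 59.5% in STAG2-KD. These shares lay near the background, although the anchors had been picked partly on loops of this kind. That background holds mostly far shorter loops. Above 1 Mb, 15 of 37 WT and 15 of 32 STAG2-KD loops of the locus were shared. Genome-wide, the shares above 1 Mb were lower, at 30.8% of WT and 26.8% of STAG2-KD loops.

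By member, MYC had 14 shared loops, which were 53.8% (33.4 to 73.4) of its WT loops and 51.9% (31.9 to 71.3) of its STAG2-KD loops. PVT1 had 5 shared loops, 27.8% (9.69 to 53.5) of its WT loops and 20.8% (7.13 to 42.2) of its STAG2-KD loops. The distal anchor had 10 shared loops, 29.4% (15.1 to 47.5) in WT and 40% (21.1 to 61.3) in STAG2-KD. The intervals of the 3 members overlapped within each list. Among the 227 anchors of the genome with at least 10 loops in both lists, the median anchor had 40% of the loops found in either list in both lists, with quartiles at 32.1% and 50%. The first MYC bin stood at 35.1% (13 of 37 loops), and the distal anchor, which was picked for loops found in 1 list only, at 20.4% (10 of 49).

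The loops of the locus were far longer than the loops of the lists as a whole. The median distance between anchor midpoints was 892.5 kb for the WT loops of the locus and 907.5 kb for the STAG2-KD loops. The medians over all loops of the lists were 90 kb and 85 kb, and over chromosome 8 they were 110 kb and 105 kb. Both lists thus had long loops here. The MYC bin was picked through 1 long loop, which is 1 of the WT loops counted here.

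Loops over 1 Mb made up 37 of the 76 WT loops (48.7%) and 32 of the 72 STAG2-KD loops (44.4%), where the background over all loops was 0.619% in WT and 0.757% in STAG2-KD. They were 21.9% of the 169 WT loops over 1 Mb in the whole genome and 16.5% of the 194 STAG2-KD loops over 1 Mb. Of these long loops at the locus, 15 were in both lists. Over the whole genome 52 were, which is 30.8% of the WT and 26.8% of the STAG2-KD loops over 1 Mb. Above 1500 kb, each list had 20 loops of the locus, out of 50 WT and 64 STAG2-KD loops genome-wide. Of the 20, 9 were shared, and genome-wide 18 were, 36% of the WT and 28.1% of the STAG2-KD loops above 1500 kb. All 24 loops of chromosome 8 above 1500 kb lay between 127000001 and 131500000, the window described further on, in each list. Distances in both lists ran from 20 to 1990 kb, so a contact of the first MYC bin past 130740000, or of the second past 130745000, could not appear in either list, nor could a contact of the distal anchor before 128705001.

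**Figure D2:**
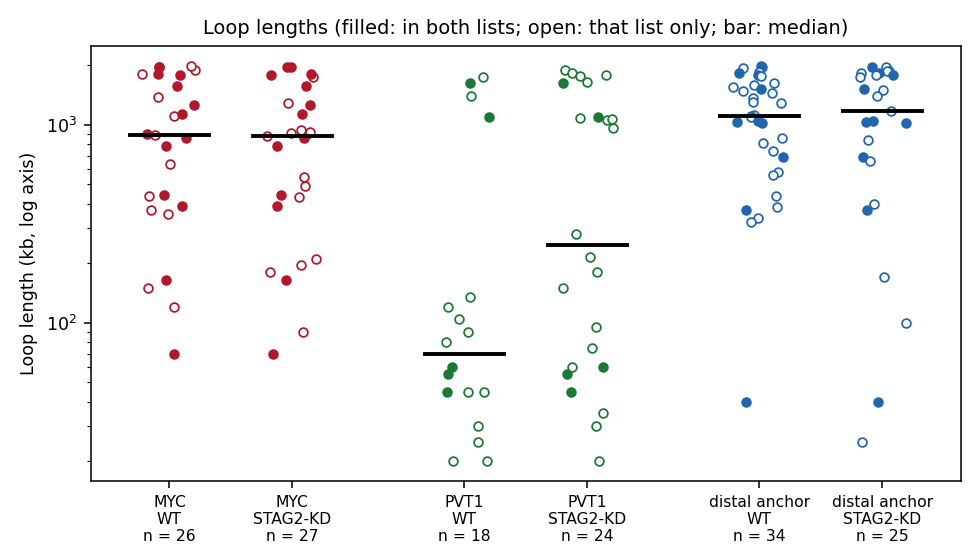
Length of each loop in kb, on a log axis, for MYC, PVT1 and the distal anchor in each list. Each point is 1 loop, filled where it is in both lists and open where it is in that list only, and the bar is the median. The medians of MYC lie at 892.5 kb (WT) and 880 kb (STAG2-KD), those of PVT1 at 70 and 247.5 kb, and those of the distal anchor at 1112.5 and 1170 kb.

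MYC had nearly the same number and span of loops in both lists. The first MYC bin carried 25 loops in each list, 13 of them shared. It ranked 8 of the 22955 anchors of the WT list by number of loops and 5 of the 22070 anchors of the STAG2-KD list, where the median anchor had 1. The ratio of STAG2-KD to WT loops was 1 at this bin and 0.939 over the lists as a whole. Among the 483 anchors with at least 10 WT loops the median was 0.75, and 349 had a lower ratio than this bin. Those anchors were filtered on the WT count alone, which by itself lowers the ratio. The median therefore does not measure a change, and the place of the MYC bin is a description. The second MYC bin, from 128750001 to 128755000, carried 1 loop in WT, to the PVT1 intron at 128820001, and 2 in STAG2-KD. The bins next to the MYC bins held no further loops, since widening the search by 1 bin on each side left 26 and 27.

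The loops of the first MYC bin pointed mostly downstream, towards PVT1 and CCDC26. There were 22 downstream and 3 upstream in WT, and 21 downstream and 4 upstream in STAG2-KD. Counting both MYC bins, 9 loops per list ended within the PVT1 body, 4 of them shared, and 9 per list ended within the CCDC26 body before the distal anchor, 5 of them shared. The 2 WT and 3 STAG2-KD loops to the stretch between PVT1 and CCDC26 included 1 shared loop. The upstream loops were 860 to 900 kb long in WT and 860 to 915 kb long in STAG2-KD, and all of them ended within PCAT1, a long non-coding RNA gene. The bins at 127845001, in a PCAT1 intron, and at 127885001, which holds a PCAT1 start, were joined to MYC in both lists.

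The shared partners of MYC downstream were spread over almost its whole reach. They lay at 70, 165, 390 and 445 kb within PVT1, at 780 kb between PVT1 and CCDC26, and at 1140, 1265, 1580, 1780 and 1800 kb within CCDC26. Past those, MYC was joined in both lists to the distal anchor at 1950 kb and to the bin at 130710001 at 1965 kb. The longest MYC loop in WT reached 1990 kb, to the bin at 130735001, and was missing from the STAG2-KD list, in which the longest was 1965 kb. In both lists the shortest MYC loop was 70 kb.

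MYC loops found in 1 list only numbered 12 in WT and 13 in STAG2-KD, and many ended near a partner of the other list. In WT, 7 of the 12 lay within 25 kb of a MYC partner of the STAG2-KD list, and in STAG2-KD 6 of the 13 lay within 25 kb of a WT partner. For 7 of the 12 WT-only loops and 7 of the 13 STAG2-KD-only loops, the far bin was an anchor of some loop in the other list. The WT-only loops over 1 Mb ended at 129860001, 130135001, 130560001, 130640001 and 130735001, and the STAG2-KD-only ones at 130040001 and 130500001. MYC thus had 12 loops over 1 Mb in WT and 9 in STAG2-KD. The bin at 130135001, in a CCDC26 intron, had 7 WT loops and none in the STAG2-KD list.

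PVT1 had loops at few of its starts. Of its 20 start bins, 4 carried a loop in WT and 7 in STAG2-KD, and all 4 of the WT bins were among the 7. The first bin, from 128805001 to 128810000, holds 93 of the 190 transcript starts and carried 6 loops in each list, of which 1 was shared. The bin at 128865001 had 6 WT and 3 STAG2-KD loops, with 2 shared. The bin at 128900001 carried 3 and 5, with 1 shared, and the bin at 128920001 carried 5 and 6, with 2 shared. All 4 bins had loops in both lists, and few of their partners were the same. The bins at 128925001, 128985001 and 129005001 had no loop in WT, and 2, 2 and 1 in STAG2-KD. The bins at 129055001 and 129060001, with 17 and 18 starts, carried none in either list.

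The loops of PVT1 were longer in the STAG2-KD list. The WT loops had a median of 70 kb and the STAG2-KD loops one of 247.5 kb, and 4 of 18 against 10 of 24 exceeded 1 Mb. At the first PVT1 bin, the 6 WT loops were 20 to 135 kb long, and all ended within the PVT1 body. The 6 STAG2-KD loops of the same bin were 35 to 1885 kb long, with 1 to a bin upstream of MYC. The longest WT loop of PVT1, at 1740 kb, joined the bin at 128900001 to a CCDC26 exon at 130640001 and was missing from the STAG2-KD list. The shortest was 20 kb in both lists. The medians at the first bin alone were 75 kb for WT and 555 kb for STAG2-KD.

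PVT1 contacts found in the STAG2-KD list only used bins that mostly had other loops in WT. Of the 19 STAG2-KD-only PVT1 loops, 18 had their far end at an anchor of some WT loop. Over all STAG2-KD-only loops, 66.5% of the ends were anchors in WT. That share counts both ends of each loop, so it is not a like measure for the far ends alone. Of the 19, 11 ended over 50 kb from any WT partner of the same PVT1 bin, while 5 came from bins that had no WT loop. Of these loops, 3 went upstream past MYC to the bin at 127845001, over 960, 1055 and 1075 kb, from the PVT1 bins at 128805001, 128900001 and 128920001. That is the bin in a PCAT1 intron to which MYC was joined in both lists at 900 kb, and it carried 8 loops in each list. No WT loop of PVT1 ended before MYC. A further 2 STAG2-KD-only loops joined PVT1 to the distal anchor, and 2 ended in the bin beside it at 130690001, over 1885 and 1765 kb.

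PVT1 loops in WT that were missing from STAG2-KD were mainly short contacts within the gene. Of the 13 WT-only PVT1 loops, 11 were 20 to 135 kb long, and the other ones were 1405 and 1740 kb long. The bin at 128895001, in a PVT1 intron, had 3 WT loops, which went to MYC and to the PVT1 bins at 128805001 and 128865001, and none in STAG2-KD. The bin at 128910001, a PVT1 exon, was joined to 2 PVT1 start bins in WT, at 128805001 and 128865001, and to 2 others in STAG2-KD, at 128985001 and 129005001. It had 12 WT and 8 STAG2-KD loops in all.

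At the distal anchor, 24 loops were in WT only and 15 in STAG2-KD only. The anchor ranked 3 among the anchors of the WT list and 5 in the STAG2-KD list, level with the first MYC bin at 25 loops. Its ratio of STAG2-KD to WT loops was 0.735, on values that had selected it. Over the 483 anchors with at least 10 WT loops, the same filter on the WT count, the median ratio was 0.75. Of these, 236 had a lower ratio than this anchor. The bin and its neighbours together had 36 loops in WT and 28 in STAG2-KD. Nearly all of its loops pointed back towards MYC, 33 of 34 in WT and 23 of 25 in STAG2-KD. They were 40 to 1980 kb long in WT and 25 to 1970 kb long in STAG2-KD, with 22 and 16 above 1 Mb.

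**Figure D3:**
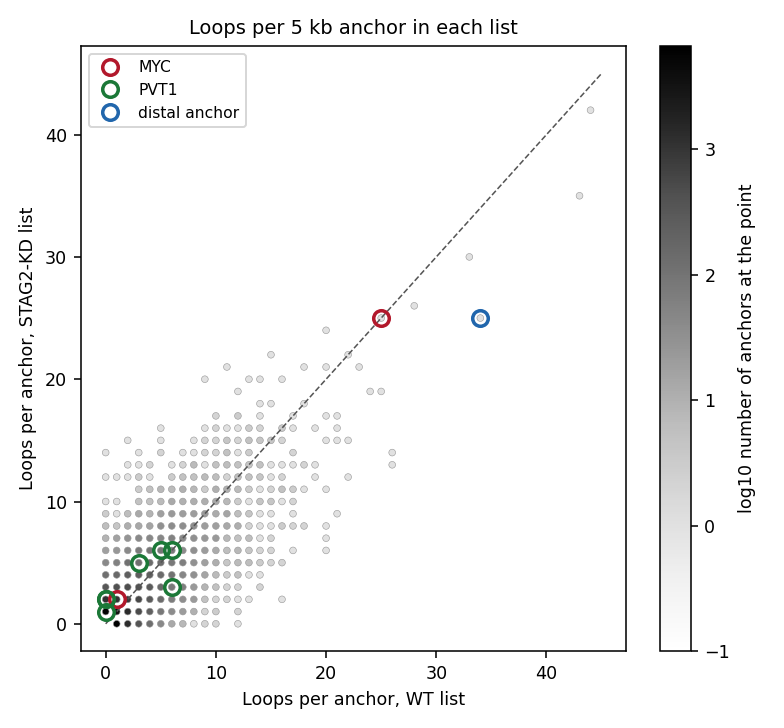
Number of loops at each 5 kb anchor of the genome in the WT list (x axis) and the STAG2-KD list (y axis). Each grey point stands for all anchors with that pair of counts, darker for more anchors on a log10 scale, the dashed line marks equal counts, and rings mark the anchors of MYC, PVT1 and the distal anchor. The MYC bin lies on the line at 25 loops in each list, and the distal anchor lies below it at 34 WT and 25 STAG2-KD loops.

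The stretch between PVT1 and CCDC26 showed the widest gap for the distal anchor. It held 8 WT partners and 2 STAG2-KD partners, none of them shared. Within the CCDC26 body the anchor had 14 WT and 10 STAG2-KD partners, 5 of them shared. Within the PVT1 body it had 8 WT and 9 STAG2-KD partners, 3 of them shared. The numbers of partners were thus close within PVT1 and further apart beyond it. The shared partners included the MYC bin at 1950 kb, the PVT1 bins at 1820, 1785 and 1515 kb, 3 bins near the 3′ end of CCDC26 at 1050, 1030 and 1020 kb, and the CCDC26 introns at 685 and 370 kb. On its far side, the anchor was joined to the bin at 130735001 over 40 kb in both lists, which holds a start of the long non-coding gene ENSG00000285108.

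Many partners of the distal anchor in WT carried no other loop. Of the 24 WT-only loops, 20 ended in a bin that anchored nothing in the STAG2-KD list, and 15 ended in a bin whose single WT loop was that one. Bins with a single loop were common, since the median anchor of either list had 1. Of the 15 STAG2-KD-only loops, 4 ended in a bin that anchored nothing in the WT list, and 4 in a bin with a single loop. Far ends found as anchors in the other list thus made up 16.7% of the WT-only loops. Over 227 anchors with at least 10 loops in both lists the median was 50%, and 28 were lower than the distal anchor. For the STAG2-KD-only loops the value was 73.3%, where the median over 224 anchors was 62.0% and 145 were lower. The distal anchor was picked for its loops found in 1 list only, so these values are a description. For the first MYC bin the values were 58.3% and 50%. LINC00824, a long non-coding RNA gene, had 1 loop at its start bins, from 129575001 to the distal anchor in WT.

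Direct contacts between different members were few. In WT there were 2, MYC with the distal anchor over 1950 kb and MYC with the PVT1 bin at 128865001 over 120 kb. In STAG2-KD there were 4, the same loop of MYC with the distal anchor, MYC with the PVT1 bin at 128925001 over 180 kb, and PVT1 with the distal anchor over 1795 and 1830 kb. No loop of the WT list joined a PVT1 start bin to the distal anchor. Within PVT1, the bins at 128805001 and 128865001 were joined over 60 kb in both lists, and those at 128900001 and 128920001 over 20 kb in WT only. When bins next to a member were counted with it, each list had 8 contacts between different members, so the difference rested on the exact bins.

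MYC and the distal anchor also had partner bins in common, which does not show a joint contact. Leaving out member bins, they had 9 partner bins in common in WT and 11 in STAG2-KD. Among the partners that lay between them, the common ones were 8 in WT, which is 42.1% of 19 MYC partners and 25.8% of 31 distal partners. In STAG2-KD all 11 lay between, 55% of 20 MYC partners and 57.9% of 19 distal partners. Only 3 bins were common partners in both lists, the PVT1 exon at 128910001 and the CCDC26 introns at 130010001 and 130325001. Common partners in WT only included 129885001 and 130135001, both in CCDC26 introns. Those in STAG2-KD only included 128820001 and 128955001 in PVT1 and 130040001 and 130525001 in CCDC26.

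PVT1 shared partners with MYC more than with the distal anchor. In WT, 7 partner bins served both PVT1 and MYC, 58.3% of 12 PVT1 partners and 29.2% of 24 MYC partners. In STAG2-KD there were 10, 76.9% of 13 and 40% of 25. In either list, then, most PVT1 partners were also MYC partners. With the distal anchor PVT1 had 4 partners in common in WT and 5 in STAG2-KD. The bins at 128820001, 128910001, 130010001 and 130545001 were common partners of MYC and PVT1 in both lists.

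The partner bins with the most loops within CCDC26 carried fewer in STAG2-KD, as anchors filtered on many WT loops mostly did. Over the 483 anchors with at least 10 WT loops, the median ratio of STAG2-KD to WT loops was 0.75. A filter on the WT count lowers this ratio by itself, so no change is read from it. The bins named here were picked for their high counts. The bin at 130325001, an intronic partner of MYC and of the distal anchor in both lists, had 26 WT and 14 STAG2-KD loops. With the distal anchor and the first MYC bin, it was among the 3 bins with the most loops of the window in each list. The bin at 130010001 carried 21 and 9, the bin at 129885001 carried 17 and 8, and the bin at 130545001 carried 16 and 12. MYC was joined to these 4 bins in both lists. Within PVT1, the bins at 128820001 and 128955001 went the other way, from 6 to 12 and from 6 to 11 loops.

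The same split by stretch held for all loops of the neighbourhood. From 127000001 to 131500000, 223 loops of the WT list and 178 of the STAG2-KD list had both anchors inside, and the 61 shared ones were 27.4% and 34.3% of these. The ratio of STAG2-KD to WT loops, 0.798, lay beside 0.840 for chromosome 8 and 0.939 for the genome. Of 5759 windows of this length taken every 0.5 Mb, 7 held more WT loops than this one. More STAG2-KD loops than in this one were held by 60, with neighbouring windows overlapping. Among the 517 windows with the most WT loops, 101 had a lower ratio of STAG2-KD to WT loops, and the median was 0.945. Without the loops of MYC, PVT1 and the distal anchor, 147 and 106 loops were left.

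By number, loop ends were lower in STAG2-KD most of all within CCDC26, and higher within PVT1 and before MYC. The CCDC26 body before the distal anchor had 183 loop ends in WT and 95 in STAG2-KD, a ratio of 0.519. The PVT1 body had 71 and 87, and the stretch before MYC had 45 and 62. With the loops of MYC, PVT1 and the distal anchor taken out, these became 156 and 70, 24 and 36, and 41 and 54. The direction in each stretch was thus the same with and without these loops. Loops with both ends in the CCDC26 stretch, from 129645001 to 130695000, numbered 67 and 30, with 14 shared and a ratio of 0.448. Windows of this length were taken every 250 kb, so neighbouring ones overlap. Over the 235 with at least 50 WT loops, the median ratio was 0.852. A ratio as low was found in 7 of them, of which 1 overlapped the stretch. The filter on the WT count lowers the ratio by itself, so the place of the stretch is a description.

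**Figure D4:**
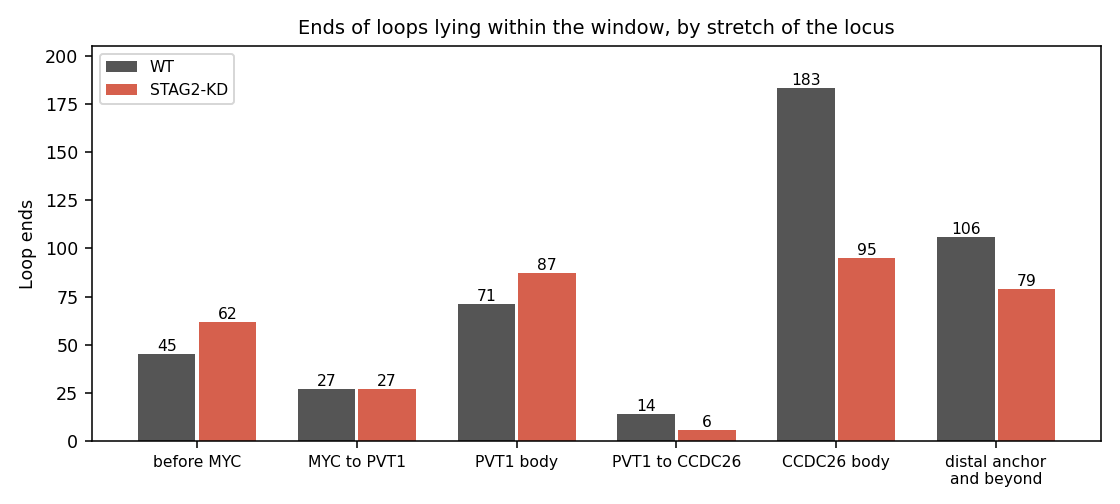
Number of loop ends by stretch of the locus, for loops with both anchors between 127000001 and 131500000, in the WT (grey) and STAG2-KD (red) lists. Each loop gives 2 ends, and the numbers above the bars are the counts. The CCDC26 body stands at 183 in WT and 95 in STAG2-KD, and the PVT1 body at 71 and 87.

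The number of spanning loops rose at MYC and fell at the distal anchor, which are called edges here. Both bins were selected on their loops, and the steps consist of those same loops. In WT, 22 loops of the first MYC bin ran right and 3 left. At the distal anchor, 33 ran left and 1 right. Any bin with many loops to 1 side gives such a step, so the edges are a description. A loop is counted as spanning a bin that lies between its anchors. The bin just before the first MYC bin was spanned by 5 loops in WT and 10 in STAG2-KD, and the bin just after it by 24 and 27. Only 2 WT and 6 STAG2-KD loops passed over the MYC bin itself. The loops that spanned the bin after it mostly started in the MYC bin. At the other edge, 42 and 27 loops spanned the bin before the distal anchor, and 10 and 6 the bin after it. The loops that passed over the distal anchor numbered 9 in WT and 4 in STAG2-KD. No loop of either list touched or spanned the 145 kb from 130740001 to 130885000. For loops of the first MYC bin this was fixed by the longest distance in the lists, 1990 kb, which ends at 130740000. The distal anchor could have reached to 132690000, but not before 128705001.

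Between the edges, the spanning loops were placed differently in the lists. In WT they rose along CCDC26 to 83 at the bin from 130375001, 1629.82 kb from the MYC start. In STAG2-KD they were highest, at 52, in the PVT1 bin from 128930001, 184.82 kb from the MYC start.

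**Figure D5:**
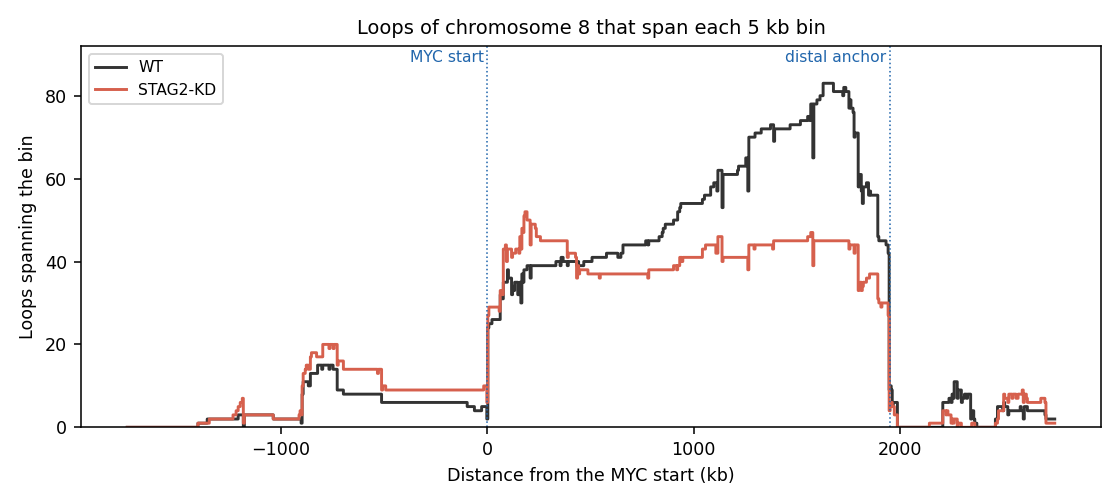
Number of loops of chromosome 8 that span each 5 kb bin, from the left anchor to the right, against the distance from the MYC start in kb, for WT (black) and STAG2-KD (red). Dotted lines mark the MYC start and the distal anchor. The WT line climbs to 83 at 1629.82 kb, before the distal anchor, and the STAG2-KD line is highest at 52 shortly after MYC. Both drop to 0 past the distal anchor and rise again, to lower values, further on.

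Other genes of the neighbourhood were joined to these anchors only in part. Of the 70 genes with a transcript start in the window, 15 had a loop at a start in WT and 13 in STAG2-KD. CCDC26 had 48 WT and 33 STAG2-KD loops at its 15 start bins, of which 35 and 27 involved MYC, PVT1 or the distal anchor, and most of these were loops of the distal anchor itself. PCAT1 had 14 and 20 loops, 1 of which per list went to MYC. LRATD2, the listed FAM84B and the nearest upstream protein-coding gene with loops, had 6 and 8. CYRIB, the listed FAM49B, had 11 and 6, and ASAP1, a regulator of Arf GTPases, had 5 and 9, and none of these joined MYC, PVT1 or the distal anchor. POU5F1B, CASC8, PRNCR1, CCAT2 and GSDMC had no loop at their starts in either list. Of 23 listed neighbourhood genes, 17 were matched in the annotation.

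MYC had more loops than any other of the listed genes of its own network, the partners and antagonists that dimerise with MAX or with MLX. Of 13 such genes, 9 had a loop at a start in WT and 7 in STAG2-KD. The genes other than MYC had 32 loops together in WT and 17 in STAG2-KD. More loops in WT were found for 7 genes, more in STAG2-KD for 2 (MYC and MLXIPL), and equal numbers above 0 for 1. Over all 20145 protein-coding genes, 37.3% had a loop at a start in WT and 35.1% in STAG2-KD. Of the 8561 with a loop in either list, 43.5% had more in WT and 34.4% more in STAG2-KD. Loops at protein-coding genes numbered 23976 in WT and 22579 in STAG2-KD, a ratio of 0.942. MYC was chosen from these lists, so its place among the network genes is a description. MNT, a repressor that dimerises with MAX, had 8 loops in each list, and MLX, the partner of the glucose-sensing Mondo proteins, had 8 and 4. MXD3 had 5 and 2, and MXI1 had 4 and 1, both repressors of the MAD family. MAX itself, the obligate partner of MYC, had 1 and 0, and MYCN and MYCL, the paralogs of MYC, had none.

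The sequence of the anchors gave features that the selection had not used. The first MYC bin holds 16 sites of MboI (GATC), the enzyme that cut the chromatin, and is 52.6% G and C, with 87.5% of the 30601 anchors of both lists lower in G and C. The distal anchor holds 10 sites, with 10.8% of anchors having fewer, and is 42.8% G and C. The median anchor holds 14 sites and is 44.1% G and C. The distal anchor therefore had its many loops with few cutting sites, while the MYC bin was near the middle for sites. The 7 PVT1 start bins with a loop and the 13 without had the same median of 14 sites.

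Exact matches to a strict core consensus of the CTCF motif, 12 letters long, were searched on both strands. CTCF is the DNA-binding protein at which cohesin loops often end. Over all anchors, 4.13% held a match. The first MYC bin held 1 on the plus strand, the distal anchor held none, and of the 67 partner bins 1 held a match. That bin, from 130720001 to 130725000, held it on the minus strand, lay 25 kb past the distal anchor and was joined to it in STAG2-KD only. A match is a description of these letters, and the lack of one draws nothing about binding.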

How the data were processed

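By the methods of the study, chromatin was cut with MboI and H3K27ac enriched, after which the authors aligned reads to hg19 with HiC-Pro (also named in the submitters' processing notes), called peaks with hichip-peaks and loops with FitHiChIP. Versions are not given in the sources used here. The methods give a false discovery rate limit for the peaks and one for loops entering the differential analysis, and do not say whether the latter shaped the deposited lists. The deposited values are positions only, in 3 columns (chromosome, left start, right end), with no count or score. Groups came from the sample titles. No other per-sample columns were present (0).

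Anchors were taken as 5 kb bins, and distances ran between midpoints. Shared loops had the same bins in both lists. A loop between 2 PVT1 bins was counted once for PVT1. No loop ended past its chromosome (0). Transcript starts came from GENCODE release 44 lifted to GRCh37. The named bins were all member bins with a loop, the shortest and longest loops, all contacts between members, common partners and the 3 bins with the most loops; other partner bins were named after their values were seen. The members, lists and comparisons were chosen with earlier results of these data known. Matching was tested on simulated data. Python 3.11.15, numpy 2.4.6, scipy 1.17.1 and matplotlib 3.10.9 were used. As alternatives, anchors were allowed to differ by 1 or 2 bins, and the others were a 1 Mb limit, the earlier 50% of lines, scaling to list size, widened bins, gene starts only, loops of 1 list only and member loops left out.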

Additional observations from a re-analysis of the deposited data

How the results depend on the processing

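No paired analysis was possible because 1 loop list stood for each group, and for the same reason no replicate could be left out. Of 105 alternative values for 24 results, 60 moved by less than their limit and 45 moved further, where the limit for a count was 1.5 times. A limit of 1 Mb on distance left 14 WT and 18 STAG2-KD loops at MYC, 12 WT and 9 STAG2-KD loops at the distal anchor, 14 loops per list at PVT1, medians of 340 kb (WT) and 212.5 kb (STAG2-KD), and 1 contact between members per list, because long loops were removed by construction. The earlier 50% of lines left 15 WT and 21 STAG2-KD loops at MYC, 9 WT and 15 STAG2-KD loops at PVT1, and 14 WT and 16 STAG2-KD loops at the distal anchor, and turned the order of loops over 1 Mb to 17 in WT and 18 in STAG2-KD. What orders the lines is not stated. Widened bins gave 28 WT and 29 STAG2-KD loops at PVT1 and 8 contacts per list. Gene starts alone gave 6 PVT1 loops and 1 contact per list. Allowing 2 bins raised the shared percentage of STAG2-KD loops to 52.8. Leaving out member loops left 147 and 106 loops in the window. Sharing and counts of weak contacts are limited by a read depth that the lists do not give.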
